A study of Homo sapiens with 2 samples.

Results

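The RWPE-ERG list of PABPC1 ChIP-seq peaks holds a large class of short peaks that rest on very few sequenced fragments. Described here are the 238 such weak peaks on chromosomes 1, 16, 17 and 19, out of 1481 RWPE-ERG peaks and 1905 peaks in both lists. They were selected on measured values: a signal of 3 to 5 tags at the summit, a length under 400 bp, and a place on one of these 4 chromosomes. The density of weak peaks on each chromosome was known at that choice. The same class on the other assembled chromosomes, 864 peaks on 19 chromosomes, served as the comparison.

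RWPE-1 cells are immortalized epithelial cells of the human prostate. They were infected either with an empty vector (RWPE-empty vector) or with a vector that expresses the ETS factor ERG (RWPE-ERG), so ERG came from the vector and not from its own gene. Each of the 2 conditions has 1 library, made by pooling 3 ChIP experiments, and no test between conditions was possible. The RWPE-ERG peaks were called from 2366623 ChIP tags against 9746026 input tags, and the RWPE-empty vector peaks from 38648756 ChIP and 15751557 input tags. A tag is an aligned read, 83 bp long in RWPE-ERG cells, and input is chromatin sequenced without the antibody. Peak lists hold no expression values, so the cell type could not be checked against marker genes.

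PABPC1 binds the poly(A) tail of messenger RNA and is mostly cytoplasmic, where it acts in translation and mRNA stability, though it shuttles through the nucleus. ERG is a transcription factor of the ETS family, whose members bind DNA around a GGAA or GGAT core, and it works with the coactivator EWS. A ChIP-seq peak of an RNA-binding protein marks DNA recovered with that protein, which may be held through other proteins.

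The sequence under these peaks was of several unlike kinds. Examples are given from GRCh37 (the same assembly as hg19), forward strand, with the letters named in each case in capitals. The first kind lay in the array of 5S ribosomal RNA genes on the long arm of chromosome 1, and 2 of its 4 weak peaks are shown whole. The capitals mark GAGNCTGAG, read on both strands.

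chr1:228753402-228753700, upstream of RNA5S4: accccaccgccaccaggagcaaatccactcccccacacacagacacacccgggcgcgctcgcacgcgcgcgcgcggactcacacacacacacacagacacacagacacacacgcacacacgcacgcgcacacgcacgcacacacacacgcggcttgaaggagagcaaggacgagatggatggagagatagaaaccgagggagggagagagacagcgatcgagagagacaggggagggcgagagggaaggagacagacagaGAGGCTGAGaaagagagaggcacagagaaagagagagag

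chr1:228775748-228776046, upstream of RNA5S14: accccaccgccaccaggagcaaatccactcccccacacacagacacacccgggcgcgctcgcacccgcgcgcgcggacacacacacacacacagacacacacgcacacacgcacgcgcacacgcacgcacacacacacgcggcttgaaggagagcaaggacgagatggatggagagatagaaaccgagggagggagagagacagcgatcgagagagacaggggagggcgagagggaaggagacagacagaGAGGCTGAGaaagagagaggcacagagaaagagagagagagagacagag

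These peaks began at the same place of different repeat units. Their first 64 bases were the same, and the longest run that both held was 203 bases, starting at base 97 of the first peak and base 87 of the second.

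The second kind held ACGGAT, an ETS-type sequence with a GGAT core. It was present in 7 of the 238 peaks (2.94%), beside 1.74% of the weak peaks elsewhere and 1.87% of all 299-bp windows of the 4 chromosomes, a difference between the sets of peaks that did not pass (Fisher's exact test, adjusted p = 0.473). Each is shown with 20 bases on either side of its first match. The capitals mark ACGGAT or its reverse complement.

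chr16:73108329-73108374, in an intron of ZFHX3: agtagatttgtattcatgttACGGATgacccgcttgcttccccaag

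chr16:85570121-85570166, in an intron of GSE1: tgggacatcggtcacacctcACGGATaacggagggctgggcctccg

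chr16:25842164-25842209, in an intron of HS3ST4: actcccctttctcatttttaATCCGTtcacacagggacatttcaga

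chr1:22985213-22985258, in an intron of C1QB: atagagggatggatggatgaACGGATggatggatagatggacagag

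chr17:49461148-49461193, in an intron of LINC02073: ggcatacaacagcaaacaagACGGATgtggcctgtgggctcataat

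chr1:149700201-149700246, in an intron of a non-coding gene: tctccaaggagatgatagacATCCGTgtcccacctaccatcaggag

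chr1:133537-133582, in an exon of a long non-coding RNA: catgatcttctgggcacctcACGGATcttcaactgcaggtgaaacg

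In C1QB the match sat inside a run of ggat repeats.

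The values that chose the peaks were spread as follows. Of the 238, 25 had 3 tags, 116 had 4 and 97 had 5. The length was 299 bp, the fragment length set by the peak caller, in 198 of them and reached 395 bp in the longest. Of the 864 peaks elsewhere, 77 had 3 tags, 463 had 4 and 324 had 5, and 722 were 299 bp long. With tags this few, the p cut-off of the caller caps the input a peak can have. The lowest −log10 p was 3.001 with 3 tags, 3.82 with 4 tags and 3.95 with 5 tags, and the highest values were 3.797, 5.08 and 6.44. The fold enrichment, in which the authors' caller added 1 to both signal and input, ran from 2.80 to 3.17 with 3 tags, from 3.37 to 3.96 with 4 and from 3.47 to 4.75 with 5. A q of at most 0.05 was reached by 70 of the 238 peaks (29.4%), all with 5 tags, beside 36.9% of the whole RWPE-ERG list and 25.8% of all weak peaks on assembled chromosomes. The selection used this measure, and nothing was read from the difference.

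Just outside the selection on the same chromosomes lay 18 peaks with 6 tags and a length under 400 bp, with a median fold enrichment of 5.15 against 4.75 for the 97 peaks with 5 tags. Another 22 peaks had 4 or 5 tags and a length of 402 to 671 bp, with a median fold enrichment of 4.56. Just inside the length limit, 18 peaks of 356 to 395 bp had a median of 3.96.

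Chromosome 1 carried 115 of the weak peaks, chromosome 16 carried 56, chromosome 19 carried 37 and chromosome 17 carried 30. Per Mb of assembled sequence this came to 0.510 on chromosome 1, 0.710 on chromosome 16, 0.663 on chromosome 19 and 0.386 on chromosome 17. Among the 23 chromosomes with a weak peak, ordered by this density, they stood at places 7, 3, 4 and 10. Chromosome 20 was first with 1.46 peaks per Mb, and the X chromosome last with 0.0397. The 4 chromosomes lay in the upper part of the range without being its extreme. They were chosen with this density known, so their places are a description and not a result. Across the 23 chromosomes the density and the mean GC content of the sequence had a Pearson r of 0.331 and a Spearman rho of 0.492, given as a description, since all points share 1 library. Of the 4, chromosome 19 had the highest mean GC content, 48.4%, and chromosome 16, with 44.8%, had the highest density.

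**Figure D1:**
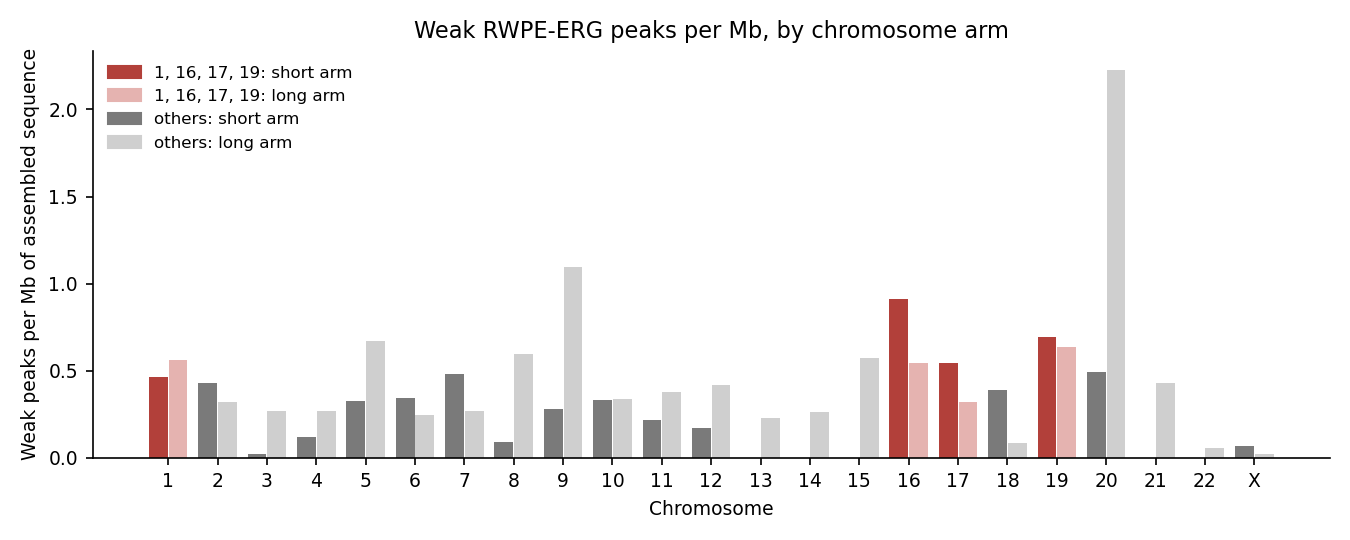
Weak RWPE-ERG peaks per Mb of assembled sequence (y axis) on the short and long arm of each chromosome (x axis), without replicates. On chromosomes 1, 16, 17 and 19 (red) the short arm carried 0.465, 0.914, 0.544 and 0.696 peaks per Mb, while the long arm of chromosome 20 reached 2.23.

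The peaks of the 4 chromosomes were split evenly between the arms. There were 117 on short arms and 121 on long arms, a short-arm share of 49.2% (Wilson 95% interval 42.9 to 55.5%), where the short arms make up 46.1% of the assembled length. On the other chromosomes 20.8% of weak peaks lay on short arms (18.3 to 23.7%), which hold 29.5% of the length of the 19 chromosomes with a weak peak. By arm, the short arm of chromosome 16 had the highest density of the 8, with 32 peaks and 0.914 per Mb, against 24 peaks and 0.547 per Mb on its long arm. On chromosome 17 the short arm also had the higher density, with 12 peaks and 0.544 per Mb against 18 peaks and 0.323 per Mb. Chromosome 19 had 0.696 and 0.637 per Mb, and chromosome 1 had 0.465 on its short and 0.563 on its long arm.

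**Figure D2:**
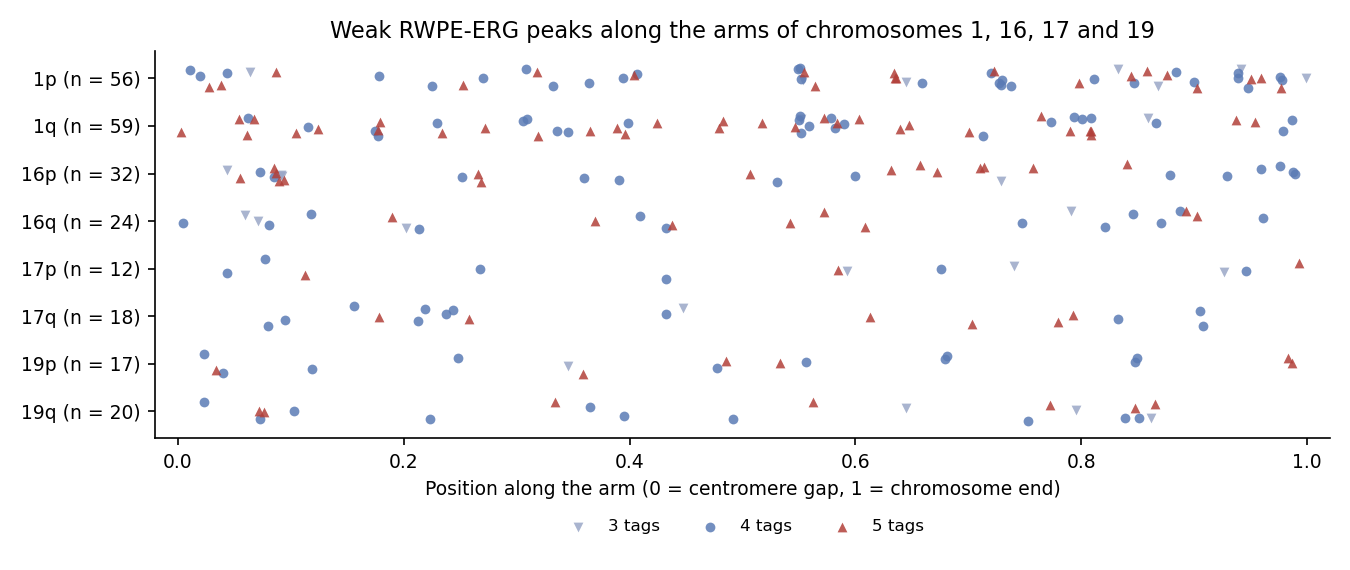
Each point is a weak peak, with the 8 arms on the y axis and the tags in symbols (points are jittered vertically). The x axis runs from the centromere gap (0) to the chromosome end (1). It is the distance to the gap divided by the sum of that distance and the distance to the nearer chromosome end. For a long-arm peak near the gap, the nearer end can be that of the short arm. A tight group of 10 peaks stands near the centromere on 16p, and 5-tag peaks occur on all 8 arms.

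Toward the centromeres the 2 sets of peaks differed. Within 5 Mb of the centromere gap lay 33 of 238 peaks (13.9%, Wilson 95% interval 10.05 to 18.8%) on the 4 chromosomes and 58 of 864 (6.71%, 5.23 to 8.58%) elsewhere, a difference of 7.15 percentage points (Newcombe interval 2.901 to 12.3; two-sided Fisher's exact test, p = 0.000785, adjusted p = 0.00764 by the Benjamini-Hochberg method over 14 properties). Of all 299-bp windows of the same chromosomes, 8.82% and 6.67% lay as close, so the peaks stood at 1.57 and 1.01 times their windows. By chromosome, 14 of these peaks lay on chromosome 16, 9 on chromosome 19, and 5 each on chromosomes 1 and 17. The difference was 3.73 percentage points without chromosome 16 (adjusted p = 0.173 by the same exact test), 3.38 without the 10 peaks on the short-arm side of its centromere (adjusted p = 0.208), and 5.23 without chromosome 19 (adjusted p = 0.0502). Without chromosome 1 it was larger, at 16.05 percentage points (22.8% against 6.71%, adjusted p = 2.97e-06 by the exact test). Within 2 Mb of the gap it was 1.84 (4.62% against 2.78%, adjusted p = 0.297 by the exact test). Within 10 Mb it was 9.87 (23.5% against 13.7%, adjusted p = 0.00568 by the exact test). With 5 tags only it was 5.58 (12.4% against 6.79%, adjusted p = 0.244 by the exact test). All of these tests count peaks of 1 library, some of which share a locus, so their p-values do not cover the variation between libraries.

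The 10 peaks on the short-arm side of the chromosome 16 centromere lay between positions 31980082 and 33737444, where most of the nearest annotated genes were pseudogenes. Every one held at least some 83-bp sequences, the length of a tag, that occur more than once in the reference, and in 4 of them these made up over 50%. The median copy number of their 31-bp sequences ran from 2 to 6. Their GC content ran from 25.4% to 64.2%, 5 of them had 5 tags, and 4 had an input above the genome-wide level. The 4 peaks on the long-arm side held no such repeated 83-bp sequence. Within this stretch, 7 peaks formed the longest run on the 4 chromosomes with gaps of at most 100 kb (the longest elsewhere had 8), chr16:31980082-32296371, 316.3 kb long with 30 tags in all. Its nearest protein-coding genes were the zinc finger gene ZNF267 and TP53TG3D, the closest of them 29 kb away.

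Within 5 Mb of a chromosome end lay 29 of the 238 peaks (12.2%, 8.62 to 16.95%) and 151 of the 864 (17.5%, 15.1 to 20.2%). The difference of −5.29 percentage points (−9.75 to 0.0390) did not pass the threshold (Fisher's exact test, adjusted p = 0.119). The share was 6.96% on chromosome 1, 17.9% on chromosome 16, 10% on chromosome 17 and 21.6% on chromosome 19, and without chromosome 1 the difference was −0.404 percentage points (17.1% against 17.5%). Here the peaks elsewhere stood farther above their windows, 2.24 times, than those of the 4 chromosomes, 1.36 times. Without chromosomes 5, 9 and 20 the share elsewhere was 14.8% and the difference −2.64 percentage points (adjusted p = 0.478 by the exact test).

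Most weak peaks stood alone. On the 4 chromosomes 39 of 238 (16.4%, 12.2 to 21.6%) had another weak peak within 100 kb, and elsewhere 146 of 864 (16.9%, 14.5 to 19.5%), a difference of −0.512 percentage points (−5.44 to 5.22; Fisher's exact test, adjusted p = 0.993). Such shares rise with the density of peaks, which was known when the chromosomes were chosen. It was 0.544 per Mb on the 4 chromosomes and 0.360 on the 19 others, so these shares alone do not compare clustering. The sign of the difference in shares turned with the choice of peaks. Without chromosomes 5, 9 and 20 the share elsewhere was 10.7% and the difference 5.70 percentage points (adjusted p = 0.0746 by the exact test), and with 5 tags only it was 5.27 (12.4% against 7.10%, adjusted p = 0.244). Of the 39, 28 were in 14 pairs and 11 in 2 longer runs, and the other 199 had no neighbour at that distance. None of the 30 peaks of chromosome 17 had one. The nearest weak peak was at a median of 630 kb on chromosome 1, 526 kb on chromosome 16, 756 kb on chromosome 17 and 265 kb on chromosome 19. Set against the mean spacing of each chromosome, these were 0.322, 0.373, 0.292 and 0.175 times it, lowest on chromosome 19 among the 4. Randomly placed peaks also give a ratio below 1, and their value was not computed. Chromosome 8 had the same 0.175, and the others ran from 0.0472 on the X chromosome (6 peaks) to 0.927 on chromosome 22 (2 peaks). Pooled, the ratio was 0.309 for the 4 chromosomes and 0.216 for the others. A stronger or longer RWPE-ERG peak lay within 100 kb of 15 of the 238 (6.30%) and of 73 of the 864 (8.45%).

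The other run lay in the 5S ribosomal RNA array of chromosome 1, whose genes encode the small RNA of the large ribosomal subunit that RNA polymerase III transcribes. The annotation places 17 genes there, RNA5S1 to RNA5S17, at a spacing of 2215 to 2242 bp over 35.9 kb. In the array or within 5 kb of it lay 10 RWPE-ERG peaks, of which 4 were weak and 6 stronger or longer. The weak peak chr1:228753402-228753700 had 5 tags, a −log10 p of 4.92 and an input of 1.85 times the genome-wide level, and its midpoint was 695 bp upstream of RNA5S4. The peak chr1:228775748-228776046 had 5 tags, a −log10 p of 6.44 and an input at the genome-wide level, 695 bp upstream of RNA5S14. At chr1:228776232-228776626, 1227 bp upstream of the same gene, 5 tags were counted. At chr1:228780166-228780464, 641 bp upstream of RNA5S16, there were 4. None of the 4 midpoints lay on a 5S gene, and the 3 that lay under 1 kb upstream of their genes fell within 54 bp of one another by that distance. Of the 6 other peaks, 2 with 7 and 6 tags lay outside the annotated genes, on the low-coordinate side of the array, and the 4 inside it lay 498 bp upstream of RNA5S3 with 4 tags, 696 bp upstream of RNA5S11 with 7, 1771 bp upstream of RNA5S5 with 6 and 1782 bp upstream of RNA5S16 with 6.

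**Figure D3:**
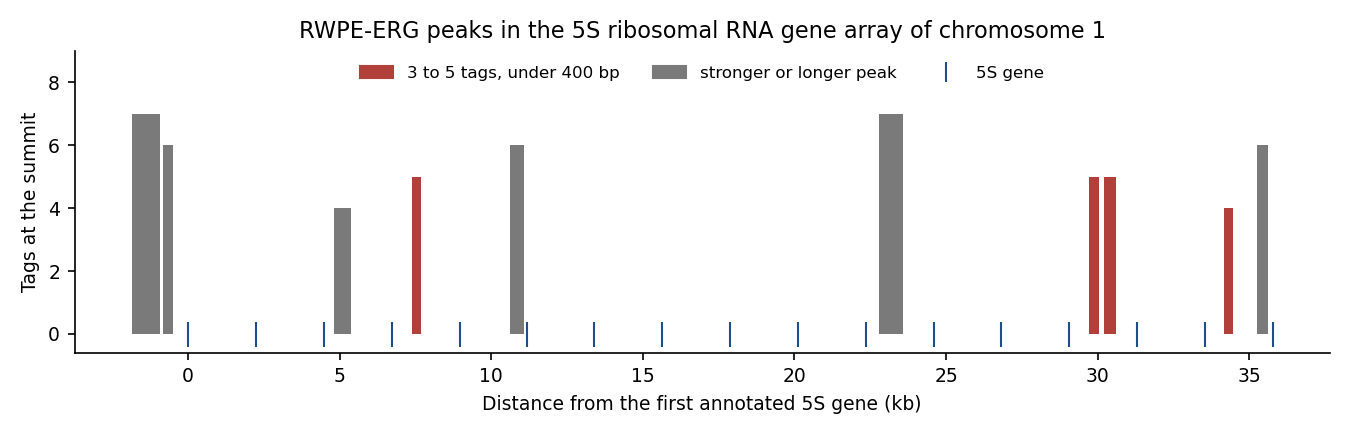
RWPE-ERG peaks in the 5S array of chromosome 1: distance of the peak from the first annotated 5S gene in kb (x axis) and tags at the summit (y axis), with bar width equal to peak length, no replicates and blue ticks for the 17 genes. The 4 weak peaks (red) had 4 or 5 tags, and the 6 others (grey) had 4 to 7.

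Every 83-bp sequence of these 4 peaks was present more than once in the reference, and the median copy number of their 31-bp sequences was 17, the number of annotated genes. A tag from any unit could therefore be placed on several of them, and the unit to which a peak belongs is not fixed by the data. Over the 238 peaks, 26 (10.9%, 7.57 to 15.5%) had a further copy of over 50% of their 83-bp sequences, against 56 of 864 (6.48%, 5.03 to 8.32%) elsewhere. This difference of 4.44 percentage points (0.612 to 9.27) did not pass after adjustment (Fisher's exact test, p = 0.0254, adjusted p = 0.0593). It was 2.92 percentage points without the 4 peaks of the 5S array (adjusted p = 0.300 by the exact test) and 3.17 without the 10 peaks beside the chromosome 16 centromere (adjusted p = 0.222). The 26 were 13 peaks on chromosome 1, 7 on chromosome 16, 5 on chromosome 17 and 1 on chromosome 19. In 20 of them the median copy number was between 2 and 20, and in the other 6 it was over 20. Among the former was a peak in TBC1D3I, a member of a duplicated gene family on chromosome 17, chr17:34588326-34588624, with 4 tags and a median of 8 copies. Among the latter was a peak in an intron of MYO1D, an unconventional myosin gene, chr17:31010400-31010698, with 4 tags and 1046 copies. No 83-bp sequence was repeated in 188 of the 238 peaks (79.0%) and in 729 of the 864 (84.4%).

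Starts of transcription were closer to the weak peaks of these chromosomes. A start of any annotated transcript lay within 1 kb of the midpoint in 38 of 238 peaks (15.97%, 11.9 to 21.2%) and in 75 of 864 elsewhere (8.68%, 6.98 to 10.8%), a difference of 7.29 percentage points (2.69 to 12.7; Fisher's exact test, adjusted p = 0.00764). These chromosomes also hold more starts. Of all their 299-bp windows 11.6% were as close, against 6.76% on the others, so the peaks stood at 1.38 and 1.28 times their windows. The share was 13.0% on chromosome 1, 10.7% on chromosome 16, 23.3% on chromosome 17 and 27.0% on chromosome 19, beside 8.68%, 11.8%, 14.6% and 18.9% of their windows. On chromosome 16 alone it was below that of the windows. Without chromosome 19 the difference was 5.25 percentage points (adjusted p = 0.0771 by the same exact test). With 5 tags only it was 2.5 (12.4% against 9.88%, adjusted p = 0.531 by the exact test). Within 500 bp of a start it was 3.05 (adjusted p = 0.138 by the exact test), and within 5 kb 10.1 (adjusted p = 0.0148).

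Fewer peaks lay near the outermost start of a gene than near any annotated start. They were 16 of the 238 peaks (6.72%, 4.18 to 10.6%) within 1 kb of it, a region that covers 5.99% of the sequence of these chromosomes, against 42 of 864 (4.86%, 3.62 to 6.51%) elsewhere, where it covers 3.68%. Measured this way, which was added after the data were seen, the difference was 1.86 percentage points (Fisher's exact test, adjusted p = 0.473). For protein-coding genes it was 3 of 238 peaks (1.26%, 0.430 to 3.64%), beside 2.34% of the sequence. The 3 were at CCR7, a chemokine receptor of lymphocytes, NLRP12, an innate immune regulator, and CLDN19, a tight junction protein.

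Exons held 14 of the 238 midpoints (5.88%, 3.54 to 9.63%), introns 140 (58.8%, 52.5 to 64.9%) and the space between genes 84 (35.3%, 29.5 to 41.6%). Elsewhere they held 59 (6.83%), 476 (55.1%) and 329 (38.1%) of 864. None of the 3 differences passed (Fisher's exact test, adjusted p = 0.772 for exons, 0.473 for introns and 0.573 for the space between genes). The intervals of the differences ran from −3.95 to 3.09 percentage points for exons and from −3.41 to 10.7 for introns. Among peaks with 5 tags the difference was 12.4 percentage points for introns (67.01% against 54.6%) and −10.6 for the space between genes (28.9% against 39.5%), and neither passed (adjusted p = 0.244 for both by the exact test). Intronic and intergenic shares were close to those of the windows of the same chromosomes, 58.8% and 32.8%. The exonic share was 0.705 times that of the windows (8.34%), and elsewhere 1.38 times. By the summit in place of the midpoint, the exonic share was 6.72% against 5.90% elsewhere. The sign of that difference thus turned, to 0.820 percentage points (adjusted p = 0.754 by the exact test).

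**Figure D4:**
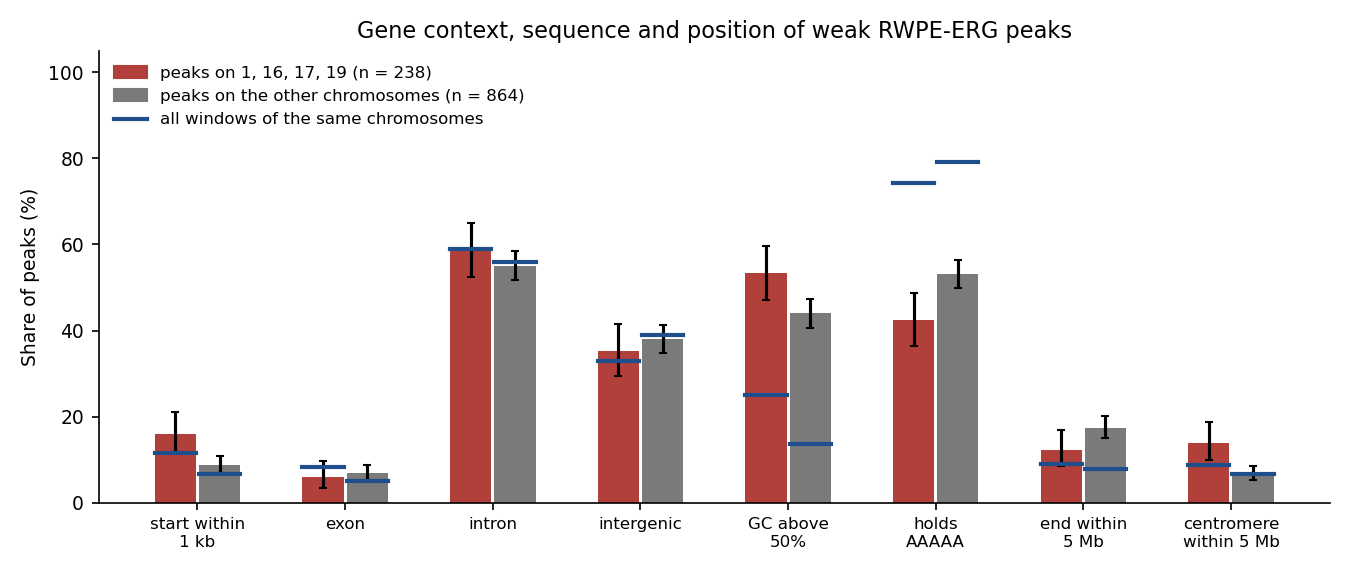
Share of weak peaks in percent (y axis) with each property (x axis) on chromosomes 1, 16, 17 and 19 (red, n = 238) and on the other chromosomes (grey, n = 864), with Wilson 95% intervals as error bars and the share among all 299-bp windows of the same chromosomes as a blue line. The bars for GC content above 50% stand far over their windows, and those for AAAAA far below.

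Of the 38 peaks near a start, 25 were near a start of a protein-coding gene, and 9 of these had 5 tags. The 5-tag peak closest to a start was at CLCN6, a chloride and proton exchanger of endosomes, chr1:11889661-11889988, 82 bp from a start and with 15 copies of GGAA, but its input was 1.85 times the genome-wide level and its −log10 p 4.92. A peak at CROCC, which encodes the ciliary rootlet protein rootletin, lay 189 bp from a start with an input of 1.27 times that level. At ZNF23, a zinc finger gene, chr16:71495768-71496066 lay in an exon, 200 bp from a start, with 21 CpG dinucleotides and a GC content of 63.9%. The peak at CCR7, chr17:38721305-38721603, was 257 bp from a start. Those at SLC27A3, of the fatty acid transporter family, and NLRP12 were 259 and 369 bp away. The last 3 were at ZNF490 (708 bp), MYOCOS (883 bp) and TBX4 (996 bp), a T-box factor of limb and lung development. Input was at the genome-wide level at ZNF23, SLC27A3, NLRP12, ZNF490 and TBX4, and 1.03 and 1.08 times it at CCR7 and MYOCOS. These 5 peaks at the genome-wide level all had the highest −log10 p that 5 tags can give here, 6.44. Most of these starts were not the outermost start of a gene. That start was 18.6 kb away at CLCN6, 34.0 kb at CROCC, 14.3 kb at ZNF490 and 27.0 kb at TBX4. It was 1.08 kb away at ZNF23, 2.5 kb at SLC27A3 and 2.62 kb at MYOCOS, and under 1 kb at CCR7 and NLRP12.

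Peaks with 3 or 4 tags near protein-coding starts numbered 16. They included SSBP3, a single-stranded DNA-binding protein gene, whose peak chr1:54791984-54792282 had its midpoint 12 bp from a start, and ACTN4, an actin cross-linker, at 251 bp. Both midpoints lay far inside the gene, 87.0 and 59.3 kb from its outermost start.

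With 5 tags and input at the genome-wide level, many peaks shared the highest −log10 p, 6.44. By the shorter distance to a protein-coding start, the first 3 of chromosome 1 were at SLC27A3, RD3, a regulator of guanylate cyclase in photoreceptors, and GON4L. The first 3 of chromosome 16 were at ZNF23, TMEM114 and ZFHX3, a homeobox transcription factor. Those of chromosome 17 were at TBX4, RPH3AL, a regulator of exocytosis, and ULK2, an autophagy kinase. Those of chromosome 19 were at NLRP12, ZNF490 and CEACAM18, of the carcinoembryonic antigen family. Of these 12, 10 lay in introns and 2 in exons. The distance to a protein-coding start ran from 200 bp at ZNF23 to 14.8 kb at ZFHX3. The tied peaks were picked by this distance, so neither their contexts nor their distances describe the weak peaks at large. Among all weak peaks with 5 tags on these chromosomes, 28.9% lay between genes. Over all weak peaks of these chromosomes, the median distance to a protein-coding start was 18.9 kb.

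The only protein-coding gene with 3 weak peaks was CAMTA1, a calmodulin-binding transcription activator on the short arm of chromosome 1. Its peaks had 3, 4 and 4 tags, all at the genome-wide input level, and lay in introns 228 to 293 kb from a protein-coding start. The peaks with ACGGAT were led by ZFHX3 and GSE1, which associates with histone deacetylase complexes, each with 5 tags and a −log10 p of 6.44. HS3ST4, a heparan sulfate sulfotransferase, had 5 tags and a −log10 p of 6.38. C1QB, a chain of complement C1q, and the LINC02073 site had 4 tags. The last 2 of the 7 lay in duplicated sequence. One on chromosome 1, chr1:149699944-149700242, had 5 tags at an input of 2.78 times the genome-wide level, and the other, chr1:133358-133656, had 3 tags and 2 matches.

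Zinc finger genes named ZNF, mostly transcriptional repressors in clusters on chromosome 19, held or were nearest to 15 of the 238 peaks (6.30%, 3.86 to 10.1%), beside 4.26% of windows. On chromosome 19 it was 8 of 37 peaks (21.6%, 11.4 to 37.2%), where 25.1% of windows lie in or nearest to such genes, and on chromosome 16 it was 5 of 56 (8.93%, 3.87 to 19.3%) with 2.07% of windows. Of the 5, 3 were in the duplicated stretch beside ZNF267, and the others were at ZNF23 and ZNF423. ZNF573 on chromosome 19 had 5 tags in an exon and 17 copies of AAAAA. ZNF675 had 5 tags in an intron with 1230 copies of its 31-bp sequences.

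Among the 15 kallikrein genes, whose windows make up 0.0661% of those of the 4 chromosomes, KLK3, which encodes prostate-specific antigen, held 1 weak peak (0.420%, 0.0742 to 2.34%), chr19:51361028-51361326. It had 4 tags, a fold enrichment of 3.96, a −log10 p of 5.08, a q above 0.05 and an input at the genome-wide level, and it held 7 copies of GGAA and no ACGGAT. Its midpoint lay in an annotated exon, 530 bp from the nearest annotated transcript start of KLK3 and 3.01 kb from the outermost start of the gene. NBPF20 held 1 peak, 1 each was nearest to NPIPA7 and NPIPB5, and 1 lay in TBC1D3I, all members of families duplicated in primates. These were 0.420% of the peaks for NBPF, 0.840% for NPIP and 0.420% for TBC1D3, beside 0.487%, 0.577% and 0.0921% of the windows, and with 1 or 2 peaks each no difference from the windows can be read. No weak peak of these chromosomes lay in or nearest to an ETS family gene (0 of 238 peaks for 8 genes; 3 counts of 238 allow a share of up to 1.26%), nor to a gene of the FET and poly(A)-binding group, of HOXB, of the keratins or of LRRC37 and PRAMEF. The windows of these groups make up 0.113% for ETS, 0.0399% for FET and poly(A)-binding, 0.0536% for HOXB, 0.151% for the keratins, 0.120% for LRRC37 and 0.148% for PRAMEF, all under that limit, so a lack of peaks there was not detectable at this number.

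The GC content was high. Over 50% of G and C were found in 127 of 238 peaks (53.4%, 47.0 to 59.6%) and in 380 of 864 elsewhere (43.98%, 40.7 to 47.3%), a difference of 9.38 percentage points (2.22 to 16.4; Fisher's exact test, adjusted p = 0.0348). Only 25.1% and 13.7% of the windows were as rich, so both sets stood over their windows, by 2.12 and 3.22 times. The median GC content was 50.8% with quartiles of 45.1 and 57.1%, and 45.8% in the 100 kb around the peaks, beside 48.5% and 42.4% elsewhere. By chromosome the share over 50% was 53.9% on chromosome 1, 48.2% on chromosome 16, 63.3% on chromosome 17 and 51.4% on chromosome 19, all above their windows (17.8%, 26.7%, 31.8% and 43.3%). Without chromosome 1, 17 or 19 the difference was 8.86, 7.94 and 9.75 percentage points, and no longer passed with fewer peaks (adjusted p = 0.186, 0.122 and 0.0502 by the exact test). At least 10 CpG dinucleotides were found in 30 peaks (12.6%), and in 12.2% of those elsewhere.

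AAAAA, the run of A that resembles a poly(A) tail, was scarce. It was found, on either strand, in 101 of 238 peaks (42.4%, 36.3 to 48.8%) and in 459 of 864 (53.1%, 49.8 to 56.4%), a difference of −10.7 percentage points (−17.6 to −3.52; Fisher's exact test, adjusted p = 0.0148), while 74.3% and 79.2% of windows held it. AAAAA moved with GC content. With over 50% GC it was in 25.98% of the 127 peaks (19.1 to 34.2%) and 35.8% of the 380 elsewhere (31.1 to 40.7%), and otherwise in 61.3% of 111 (52.0 to 69.8%) and 66.7% of 484 (62.4 to 70.8%). Within 100 bp around the summit the difference was −1.83 percentage points (adjusted p = 0.765 by the exact test). It was −10.8 without chromosome 1 and −9.38 without chromosome 17, and no longer passed (adjusted p = 0.0929 and 0.0581 by the exact test). Without chromosome 16 or 19 it still passed (adjusted p = 0.0418 and 0.0402 by the exact test). With 5 tags only it was −16.6 (37.1% against 53.7%) and did not pass (adjusted p = 0.0745 by the exact test).

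ACGGAT was in 7 of 238 peaks (2.94%, 1.43 to 5.95%) and in 15 of 864 (1.74%, 1.06 to 2.85%), a difference of 1.20 percentage points (−0.668 to 4.29; Fisher's exact test, adjusted p = 0.473), and in 1.87% and 1.70% of windows. GAGNCTGAG was in 34 of 238 (14.3%, 10.4 to 19.3%) and in 101 of 864 (11.7%, 9.71 to 14%), a difference of 2.60 percentage points (−1.92 to 7.99; adjusted p = 0.473 by the exact test), and in 14.2% and 9.12% of windows, so the peaks stood at 1.01 and 1.28 times their windows. In the 100 bp around the summit alone, ACGGAT was in 0.420% and 0.579% of the peaks and GAGNCTGAG in 4.62% and 5.21%, both slightly lower on the 4 chromosomes (adjusted p = 1 and 0.993 by the exact test). The core GGAA was in 201 of the 238 (84.4%) and 712 of the 864 (82.4%), with a median of 3 copies in both, beside 90.3% and 92.0% of windows. At least 10 copies of GGAA were held by 8 of the 238 peaks (3.36%) and 13 of the 864 (1.505%), a difference that was not tested. Repeats with at least 3 copies of ACACATA or ATATACA were in 14 of 238 (5.88%) and 57 of 864 (6.60%). These 14 had a median GC content of 32.1%, and 9 had 5 tags. One nearest to KCNJ2 held 53 copies, at an input of 1.85 times the genome-wide level.

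The local input behind each peak was solved from its fold enrichment. Where no local excess was found the caller used a genome-wide level of 0.262 tags, which equals 36.1 input tags in 10 kb. Above it stood 102 of the 238 peaks (42.9%, 36.7 to 49.2%) and 471 of the 864 (54.5%, 51.2 to 57.8%), a difference of −11.7 percentage points (−18.6 to −4.48; Fisher's exact test, adjusted p = 0.00764). Without chromosomes 5, 9 and 20 the share elsewhere was 44.3% and the difference −1.45 percentage points (adjusted p = 0.883 by the exact test). An input of over 1.5 times the level was found at 13.4% of the 238 and 14.2% of the 864 (difference −0.791 percentage points, adjusted p = 0.972 by the exact test). Since the caller's cut-off allows more input with more tags, the shares are given by tags. They were 32.0%, 40.5% and 48.5% with 3, 4 and 5 tags on the 4 chromosomes, 46.8%, 53.8% and 57.4% elsewhere, and 36.7%, 42.9% and 48.3% elsewhere without chromosomes 5, 9 and 20.

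**Figure D5:**
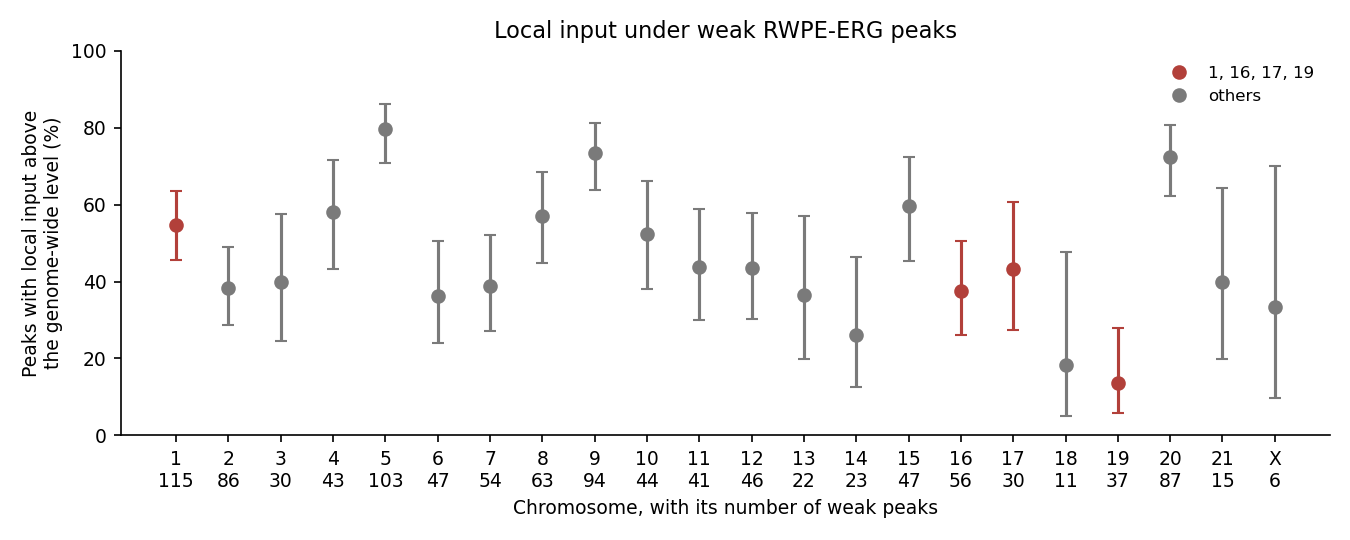
Share of weak peaks whose local input stood above the genome-wide level, in percent (y axis), for each chromosome with at least 5 weak peaks (x axis, with the number of peaks), with Wilson 95% intervals. Chromosome 19 is the lowest at 13.5%, and chromosome 1 the highest of the red 4 at 54.8%.

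The 4 chromosomes were unlike one another in this measure. The share was 54.8% on chromosome 1 (63 of 115, 45.7 to 63.6%), 43.3% on chromosome 17 (13 of 30, 27.4 to 60.8%), 37.5% on chromosome 16 (21 of 56, 26.01 to 50.6%) and 13.5% on chromosome 19 (5 of 37, 5.91 to 27.98%). The intervals of chromosomes 1 and 19 did not overlap, and those of chromosomes 16 and 17 overlapped widely. The long arm of chromosome 1 had 67.8% of 59 peaks above the level, with a median of 1.16 times it, and the short arm 41.1% of 56, with a median at the level. On chromosomes 16 and 17 the order was the other way, 46.9% and 58.3% on the short arms and 25% and 33.3% on the long ones. Without chromosome 19 the difference between the 4 chromosomes and the rest was −6.25 percentage points (adjusted p = 0.233 by the exact test), and without chromosome 1 it was −22.8 (31.7% against 54.5%, adjusted p = 2e-05). In whole input tags, the excess came from 37 to 92 tags in 10 kb at 51 peaks, from 4 to 6 tags in 1 kb at 29, and from 2 or 3 tags within one fragment length at 22. The highest input, 2.78 times the level, thus stood for 3 tags in one fragment length.

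None of the 238 weak peaks overlapped a RWPE-empty vector peak or lay within 1 kb of one, and 3 counts of 238 allow a share of up to 1.26%. Of the weak peaks elsewhere 1 of 864 (0.116%) did, too few for a comparison (Fisher's exact test, adjusted p = 1). Among RWPE-ERG peaks of every strength, 17 of 1481 (1.15%) overlapped one, and 3 of the 304 on the 4 chromosomes (0.987%), both under the limit of 1.26%. The RWPE-empty vector peaks were called from far more tags, and counting error alone is covered by these limits.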

How the data were processed

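DNA recovered with PABPC1 was sequenced from RWPE-ERG and from control cells. Peaks are MACS2 2.1.2 calls by the authors with a p limit of 0.001, made on hg19 from Bowtie2 alignments. Blacklist regions (bedtools) and duplicate reads (SAMtools) had been taken out first. The deposited lists give each peak's signal (the pileup, in whole tags for RWPE-ERG), −log10 p and −log10 q, and fold enrichment, a ratio with 1 added to both terms. The lists were used as called.

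Members were the rows of the RWPE-ERG list that met the limits above, and peaks on unplaced sequences were left out. The members and lists were chosen with earlier results of these data known. Local input was (pileup + 1)/fold enrichment − 1. The deposited −log10 p was recomputed from tags and input to within 1.48e-05. Gene context used the peak midpoint and GENCODE release 44 on GRCh37. Centromeres were taken as the longest assembly gap, which on chromosomes 21 and Y lies elsewhere. Windows were all 299-bp tiles without N. Those of the other chromosomes include chromosome Y, which held 0 weak peaks, and leaving it out moved each window share by at most 2.24% of its value. Copies of 83- and 31-bp sequences were counted on both strands of the assembly. Shares were compared by two-sided Fisher's exact tests, adjusted by the Benjamini-Hochberg method over 14 properties at 0.05, with Wilson and Newcombe 95% intervals, which cover counting error only. Members were named by a rule: the 3 with the highest −log10 p on each chromosome, 5-tag peaks at protein-coding starts, those with ACGGAT, runs of 3 or more, genes with 3 or more, and genes of the lists. Ties in −log10 p were ordered by the shorter distance to a protein-coding start. GGAA and ACACATA repeats, multicopy peaks, peaks at starts with fewer tags and the outermost starts were chosen after their values were seen. Some sequences are not reported here. Functions were tested on simulated data. Alternatives are given in the closing section. Software was scipy 1.17.1, pandas 2.3.3, numba 0.67.0, numpy 2.4.6 and matplotlib 3.10.9 under Python 3.11.15.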

Additional observations from a re-analysis of the deposited data

How the results depend on the processing

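The depth of the RWPE-ERG library limits every value: a peak rests on 3 to 5 tags, and no replicate library shows which peaks recur. Each of the 14 tested shares was recomputed under alternatives, 171 values in all. They are given as the share on chromosomes 1, 16, 17 and 19 minus that elsewhere in percentage points. In 139 the side of the threshold was kept and the sign did not turn. Among these, the overlap with RWPE-empty vector peaks was 0% in both sets with 5 tags only. In 24 a difference no longer passed, in 8 the sign turned without passing on either side, and 0 passed that had not. Differences that no longer passed follow. With 4 or 5 tags, it was 8.66 for GC content. With 5 tags only, they were 2.5 for starts, 6.79 for GC content, −8.95 for input, 5.58 for centromeres and −16.6 for AAAAA. Without chromosome 1, they were 8.86 for GC content and −10.8 for AAAAA. Without chromosome 16, they were −10.01 for input and 3.73 for centromeres. Without chromosome 17, they were 7.94 for GC content and −9.38 for AAAAA. Without chromosome 19, they were 5.25 for starts, 9.75 for GC content, −6.25 for input and 5.23 for centromeres. With chromosomes 5, 9 and 20 left out, it was −1.45 for input. With starts within 500 bp, it was 3.05 for starts. With the input limit at 1.5 times, it was −0.791 for input. Within 2 Mb of the gap, it was 1.84 for centromeres. In 100 bp around the summit, it was −1.83 for AAAAA. Without the multicopy peaks, it was 9.16 for GC content. Without the 16p pericentromere, it was 3.38 for centromeres. By the outermost start of each gene, it was 1.86 for starts. Differences whose sign turned follow. With 4 or 5 tags, it was 1.22 for neighbours. With 5 tags only, it was 5.27 for neighbours. Without chromosome 17, it was 1.85 for neighbours. With chromosomes 5, 9 and 20 left out, it was 5.7 for neighbours. By the summit, it was 0.82 for exons. Within 1 Mb, it was 5.95 for neighbours. In 100 bp around the summit, they were −0.159 for ACGGAT and −0.587 for GAGNCTGAG. Leaving out the multicopy peaks, the 5S array, the 16p pericentromere or chromosome 21, and the outermost starts, were chosen after seeing the data. The differences in starts, input and centromeres each fell short without chromosome 19, and those in input and centromeres also without chromosome 16. The cause of these changes was not tested. No paired analysis was possible because each condition has 1 library and no test compared conditions.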

Other observations

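Besides CAMTA1, 6 protein-coding genes held 2 weak peaks each on these chromosomes. They included GRIN2A, which encodes a subunit of the NMDA glutamate receptor, GSE1, HS3ST4 and ST3GAL3, a sialyltransferase. In all, 121 of the 238 peaks (50.8%) lay in a protein-coding gene, and these were spread over 123 genes, since genes overlap, against 386 of 864 (44.7%) elsewhere. The difference in the share outside protein-coding genes, −6.16 percentage points, did not pass (Fisher's exact test, adjusted p = 0.143).

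Of the 14 pairs of weak peaks within 100 kb, 8 were on chromosome 1, 2 on chromosome 16 and 4 on chromosome 19. The closest on chromosome 1 was chr1:201418236-201423091, spanning 4.86 kb. In 1 pair, chr1:161423406-161437002, 13.6 kb long and nearest to FCGR2A, an immunoglobulin receptor gene, both peaks were in sequence with a median of 4 copies, with 5 and 4 tags and inputs of 1.85 and 1.39 times the genome-wide level.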
